A study of Rattus norvegicus with 142 samples.

Results

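Arc, Bdnf, Homer1 and Ptgs2 are effector genes of neuronal activity: their transcripts are raised when neurons fire, and their proteins act on the synapse itself rather than on transcription. They were followed here through 5 of the 24249 probe sets of the array, chosen by identifier: 1387068_AT for Arc, 1368677_AT for Bdnf, 1370454_AT and 1370997_AT for Homer1, and 1368527_AT for Ptgs2. The samples were hippocampus and cortex of Long-Evans rat pups, treated at postnatal day 10 and killed 1, 6, 12, 48 or 168 h later. The noHS group was kept in normoxia and given the vehicle, the HS group underwent hypoxia that induced seizures and was given the same vehicle, and the HS+NBQX group underwent the same hypoxia and was then injected with NBQX, an antagonist of AMPA-type glutamate receptors. All 3 groups were thus injected, and no group was left without injections. In hippocampus there were 24 noHS, 23 HS and 23 HS+NBQX libraries, a library being 1 array hybridised with the RNA of 1 tissue of 1 pup, and in cortex 25, 23 and 24. The 142 libraries came from 74 pups of 11 litters, with 4 to 6 libraries in each group of tissue, treatment and time. A litter here is the set of pups that share a cage code. Whether the pups of a cage were of the same litter was not checked.

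Neuronal firing opens glutamate receptors and calcium channels, and the calcium that enters the cell activates kinases that switch on a first wave of genes within minutes. Arc, an mRNA that travels to dendrites, encodes a protein that promotes the removal of AMPA receptors from the synapse. Homer1 encodes scaffold proteins that tie group I metabotropic glutamate receptors to their partners, and its short activity-induced form, Homer1a, uncouples them. Bdnf encodes brain-derived neurotrophic factor, a secreted ligand of the receptor TrkB that supports synapse growth and is transcribed from several promoters. Ptgs2 encodes cyclooxygenase-2, the enzyme that starts prostaglandin synthesis and that in forebrain is made largely by excitatory neurons. All are known to respond to seizures in the adult brain, and all are also used during the maturation of forebrain circuits.

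A promoter sequence was found for 3 of the 4 genes in the RefSeq table of build GRCr8, as windows of 250 bases before to 50 bases after a start site. The windows printed here are those of Homer1 and Ptgs2 and, of the 6 windows of Bdnf, window 4 along the chromosome, in which a core of the cAMP response element was found. They are shown because these genes are known for transcription that follows activity, and capitals mark the motif matches.
Bdnf, window 4, chr3:116637608-116637907, plus strand: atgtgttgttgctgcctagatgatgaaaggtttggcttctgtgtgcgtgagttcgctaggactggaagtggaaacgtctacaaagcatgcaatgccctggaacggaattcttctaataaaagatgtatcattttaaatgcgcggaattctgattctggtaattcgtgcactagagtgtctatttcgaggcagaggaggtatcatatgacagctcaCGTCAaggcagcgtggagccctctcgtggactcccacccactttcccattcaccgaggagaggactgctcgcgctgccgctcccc
Homer1, chr2:26278762-26279061, plus strand: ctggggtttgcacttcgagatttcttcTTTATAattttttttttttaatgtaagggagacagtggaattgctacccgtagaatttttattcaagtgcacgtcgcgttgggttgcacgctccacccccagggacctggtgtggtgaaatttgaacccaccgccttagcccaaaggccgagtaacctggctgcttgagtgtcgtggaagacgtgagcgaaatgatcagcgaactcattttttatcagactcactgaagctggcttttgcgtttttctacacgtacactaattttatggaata
Ptgs2, chr13:64713813-64714112, plus strand: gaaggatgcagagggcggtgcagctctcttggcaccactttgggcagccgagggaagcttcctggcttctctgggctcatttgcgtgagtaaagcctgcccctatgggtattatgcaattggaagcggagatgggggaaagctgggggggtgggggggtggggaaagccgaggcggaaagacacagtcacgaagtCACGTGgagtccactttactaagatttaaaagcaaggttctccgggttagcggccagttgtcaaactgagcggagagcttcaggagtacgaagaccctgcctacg

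The motifs searched, on both strands, were TGACGTCA for the full cAMP response element, TGACG for its core, TGANTCA for AP-1, TATAAA for the TATA box, CACGTG for the E box, and the CArG box of the serum response element. The core of the cAMP response element was found 35 bases before the start site of Bdnf window 4, on the minus strand, and 21.2% of 33469 rat promoters of this length hold this core. This share is for a single window, while several windows of Bdnf were searched. The chance that any of them holds the core is larger and was not computed. The Ptgs2 window held an E box 55 bases before the start, a motif present in 6.42% of promoters. The Homer1 window held 1 TATAAA on the minus strand, 223 bases before the start, and 14.2% of promoters hold these letters. The full element, found in 1.83% of promoters, and the CArG box, found in 1.64%, were in none of the 8 windows. Of the other Bdnf windows, the second held an E box and a TATAAA, the third an AP-1 match (7.33% of promoters) and the remaining 3 no match. A match describes the letters of a window only, and a factor's binding was not measured.

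The arrays reported an intensity on a linear scale, and the authors had already scaled each array to a common upper quartile. The array medians ranged from 63.8 to 75.9 in hippocampus and from 65.4 to 79.9 in cortex. In the median hippocampal library, the Arc probe set was brighter than 49.2% of all probe sets of the same array, Bdnf than 75.9%, Homer1 1370454 than 76.0%, Homer1 1370997 than 54.6% and Ptgs2 than 68.2%. Brightness is not compared between probe sets here, since it depends on the probes. The arrays filled 2 plates. Before 168 h all hippocampal libraries lay on plate 1 and all cortical libraries on plate 2, so that tissue and plate cannot be told apart at those times. Each litter was killed at 1 time, so litter and time cannot be told apart either. The tissues were profiled whole, and a change in the level of a transcript per cell and a change in the share of the cells that make it cannot be told apart. The tissue labels were not checked against marker genes, since no table at hand names the other probe sets.

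The first comparison was of the times within the noHS group, which follows the tissue over the week without hypoxia. Per the methods, the vehicle was injected from shortly after the time of hypoxia until well before 168 h. Age and the time since the last injection thus cannot be told apart. From 1 h to 168 h, that is over the week after postnatal day 10, Arc, Homer1 and Ptgs2 rose in hippocampus while Bdnf was not called, and in cortex all 4 genes rose. Of the 5 probe sets, 4 rose in hippocampus, where 8.61% of all probe sets rose, and 5 rose in cortex, where 10.9% rose (limma on log2 intensity, Benjamini-Hochberg adjusted p under 0.05 over all probe sets, the rule for every call in the text).

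Arc, the dendritic effector, was at 39.3, 69.8, 52.5, 67.0 and 67.6 in the 5 noHS hippocampi at 1 h and at 146, 121, 123, 115 and 102 at 168 h. The groups did not overlap, and the lowest library at 168 h stood above the highest at 1 h. The rise was 1.06 ± 0.23 on the log2 scale (estimate ± standard error, a 2.08-fold rise, limma adjusted p = 0.00135). In cortex Arc went from 66.1, 72.9, 70.3 and 62.9 in 4 libraries to 277, 269, 311, 280 and 182 in 5, again with no overlap, and the rise was 1.93 ± 0.17 (3.82-fold, limma adjusted p = 3.07e-09).

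Homer1, the scaffold gene, rose on both of its probe sets. Which forms of Homer1 each probe set reads was not determined, so a change in Homer1a alone is not separated here. On 1370454 the noHS hippocampi were at 287, 259, 278, 259 and 296 at 1 h and at 752, 688, 688, 850 and 828 at 168 h, a 2.75-fold rise (1.46 ± 0.14, limma adjusted p = 2.37e-08). In cortex this probe set went from 369, 394, 337 and 335 to 2020, 1950, 1930, 1970 and 1630, a 5.29-fold rise (2.40 ± 0.17, limma adjusted p = 5.8e-11). This was the steepest rise among the 5 probe sets in noHS cortex. On 1370997 the rise was 3.10-fold in hippocampus and 3.80-fold in cortex.

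Bdnf, the secreted ligand, differed between the tissues. In noHS hippocampus it was at 304, 364, 279, 269 and 361 at 1 h and at 408, 356, 349, 283 and 273 at 168 h, and these groups overlapped, with 1 library at 168 h (408) above all those at 1 h and 1 at 1 h (269) below all those at 168 h. The difference was 0.08 ± 0.14 (95% confidence interval -0.22 to 0.37, limma adjusted p = 0.788), so a rise of more than 1.29-fold lay outside the interval. This bound holds for 168 h libraries from 2 plates. On the plate of the 1 h libraries alone the difference was 0.24 (limma adjusted p = 0.404), as described further on. In cortex Bdnf went from 97.9, 146, 88.2 and 97.3 to 264, 268, 256, 328 and 292, a 2.67-fold rise with no overlap (1.41 ± 0.16, limma adjusted p = 2.06e-07).

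Ptgs2, the cyclooxygenase gene, was at 168, 154, 121, 192 and 185 in noHS hippocampus at 1 h and at 358, 352, 345, 509 and 490 at 168 h, a 2.50-fold rise (1.32 ± 0.23, limma adjusted p = 0.000126). In cortex it went from 91.1, 129, 116 and 97.6 to 438, 470, 410, 191 and 258, a 3.11-fold rise (1.64 ± 0.19, limma adjusted p = 1.69e-07). Neither tissue showed an overlap, but the 168 h values fell into a lower and a higher set, which lay on different plates as described further on.

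**Figure D1:**
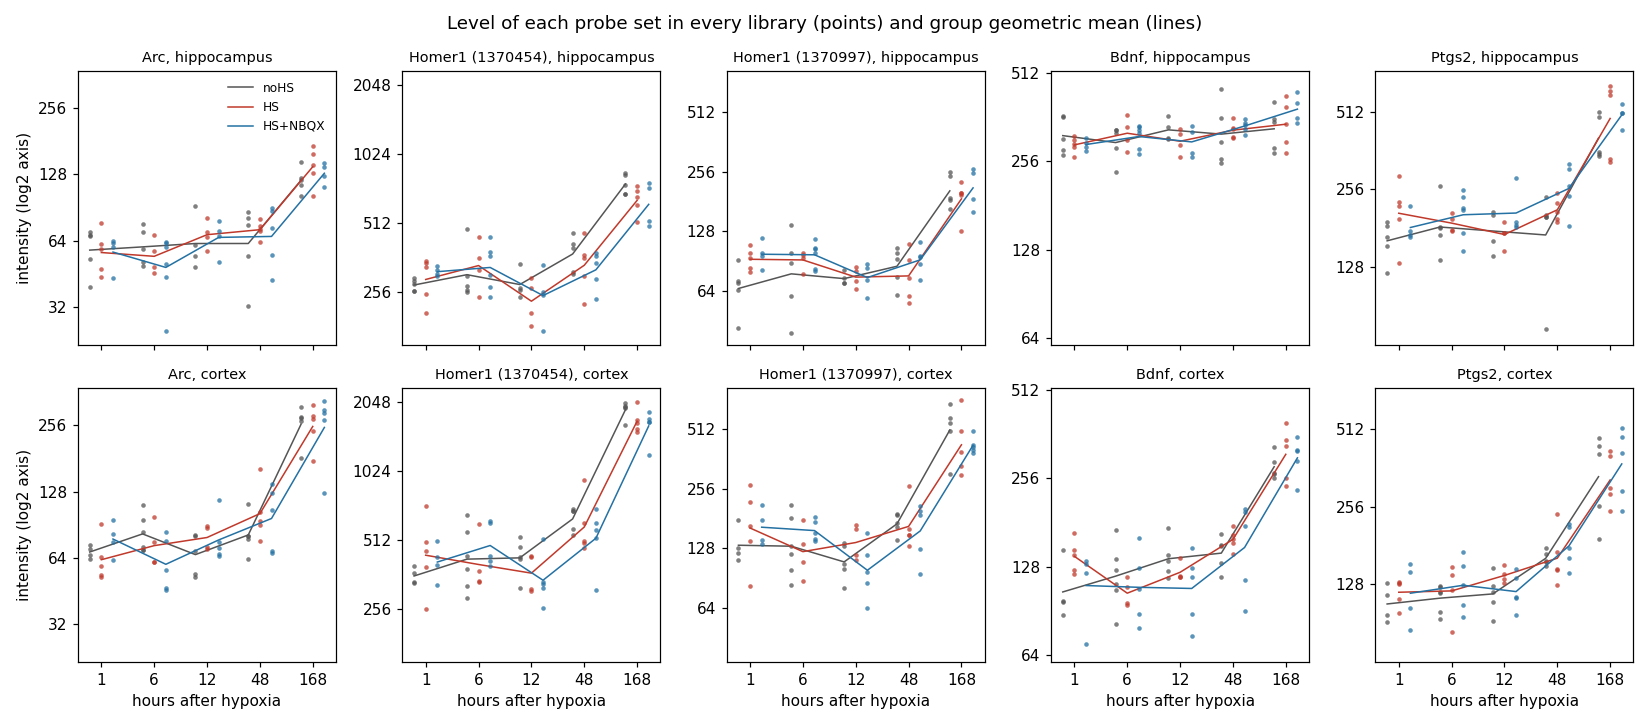
Intensity (log2 axis) of each probe set in every library against hours after hypoxia (equally spaced), in hippocampus (top) and cortex (bottom). Points are libraries, lines join the geometric means of the noHS (grey), HS (red) and HS+NBQX (blue) groups, and every line ends at its highest mean at 168 h, although the noHS line of hippocampal Bdnf stays between 296 and 330.

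Most of the rise came after 48 h. From 48 h to 168 h the same 4 hippocampal probe sets and all 5 cortical ones were called higher in noHS, against 4.96% and 6.61% of all probe sets, with rises of 1.94-fold for Arc and 2.37-fold for Ptgs2 in hippocampus and 3.20-fold and 2.07-fold in cortex. With the methods' t-test 2 of the 4 hippocampal calls were lost, Arc (adjusted p = 0.122) and Ptgs2 (adjusted p = 0.0968). At 6, 12 and 48 h against 1 h, 0 of the 5 were called in hippocampus (0%, 0% and 0.0619% of all), and in cortex 0, 0 and 1 (0%, 0.528% and 2.86%), the call at 48 h being Homer1 1370454. It stood at 687, 689, 573, 540 and 699 at 48 h, all above the 1 h range of 335 to 394, with a difference of 0.82 ± 0.17 on the log2 scale (limma adjusted p = 0.00795). Its limma adjusted p was 0.0548 when plate columns were treated as random blocks. At 48 h in cortex Ptgs2 differed from 1 h by 0.59 (limma adjusted p = 0.0903) and Bdnf by 0.44 (limma adjusted p = 0.152).

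Over all 3 treatments together, the 168 h libraries of most probe sets stood clear of every earlier library of the same tissue. In hippocampus all 14 libraries at 168 h were above all 56 earlier ones for Arc (lowest at 168 h 102, highest earlier 92.1), Homer1 1370454 (498 and 482) and Ptgs2 (328 and 322), and 13 of 14 were for Homer1 1370997. For Bdnf 0 of 14 were, and the highest hippocampal Bdnf value of all, 452, was of a noHS pup at 48 h. In cortex all 15 libraries at 168 h exceeded all 57 earlier ones for Bdnf (234 and 201) and both Homer1 probe sets (1200 and 933 for 1370454, 300 and 267 for 1370997). For Arc 14 of 15 did, the exception being 1 HS+NBQX library at 126, and for Ptgs2 also 14 of 15. The share of all probe sets that separate in this way was not computed, so the separation is not shown to be particular to these genes. A measure of RNA quality moved with age. The log2 ratio of 3' to 5' control probes averaged 1.72 before and 1.84 at 168 h in hippocampus, and 1.75 and 1.87 in cortex. Its part in these rises was not tested.

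The rise was also present in the pups that had seizures. From 1 h to 168 h in HS, 4 of the 5 probe sets rose in hippocampus (12.1% of all probe sets rose) and 5 in cortex (14.5%), and in HS+NBQX 5 rose in hippocampus (9.02%) and 5 in cortex (12.3%). In the HS pups, Homer1 1370454 rose 2.21-fold in hippocampus and 3.83-fold in cortex, and Arc 2.46-fold and 4.04-fold. Hippocampal Bdnf differed by 0.23 ± 0.10 in HS (limma adjusted p = 0.1, and 0.0251 without the 168 h library at 274) and rose by 0.40 ± 0.10 in HS+NBQX, a 1.32-fold rise (limma adjusted p = 0.00266). At 168 h the hippocampal noHS group had 3 libraries on plate 1 and 2 on plate 2. The HS group had 2 and 3, and the HS+NBQX group 3 and 1. Bdnf differed between the plates, as described further on. Its rise in HS+NBQX was not tested against those of the other groups. Whether the rise differed between HS and noHS was tested as an interaction, and 0 of the 5 probe sets were called in hippocampus, where no probe set of the array was called, or in cortex, where 0.115% were. The smallest p was that of Homer1 1370997 in hippocampus, which rose 2.02-fold in HS against 3.10-fold in noHS (difference -0.62, confidence interval -1.23 to -0.01, limma adjusted p = 0.999).

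**Figure D2:**
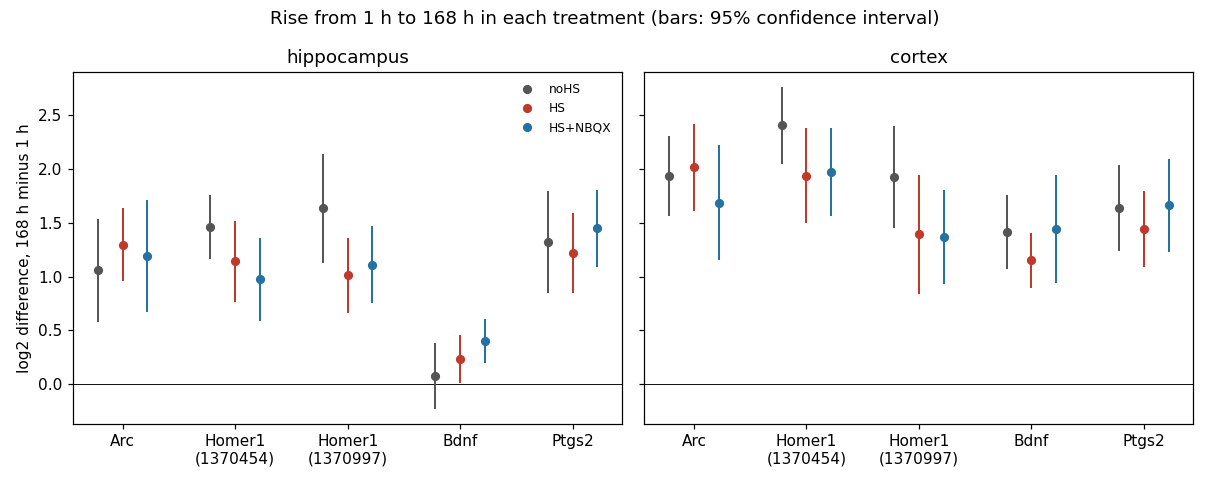
Log2 difference between 168 h and 1 h for each probe set in noHS (grey), HS (red) and HS+NBQX (blue), with 95% confidence intervals, in hippocampus (left) and cortex (right). Hippocampal Bdnf lies at 0.08, 0.23 and 0.40, while all other points of the plot lie between 0.97 and 2.40. The groups differ in how many of their hippocampal libraries at 168 h lay on each plate.

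At 168 h the 2 litters lay on opposite plates, so that tissue and plate do not coincide at that age. Plate there coincides with the interaction of tissue and litter. A tissue difference that varied between the litters and a plate difference thus cannot be told apart. One litter kept the earlier layout (8 hippocampal libraries on plate 1 and 8 cortical on plate 2), and the other had 6 hippocampal libraries on plate 2 and 7 cortical on plate 1. Over these 29 libraries a fit of tissue, treatment and plate called a plate difference for 3 of the 5 probe sets, where 38.9% of all probe sets were called. Ptgs2 was 1.59-fold brighter on plate 2 (0.67 ± 0.06, limma adjusted p = 2.98e-10), Arc 1.22-fold brighter (0.29 ± 0.10, limma adjusted p = 0.0224) and Bdnf 1.27-fold dimmer (limma adjusted p = 1.45e-06). Neither Homer1 probe set was called (0.06 ± 0.07 and 0.15 ± 0.12). With litter added to the fit the same 3 were called (39% of all), with 0.66 for Ptgs2. Both fits took the libraries as independent, although 14 pups gave both tissues at 168 h.

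The values show the pattern for Ptgs2 directly. Hippocampal libraries were at 328 to 507 on plate 1 and 490 to 641 on plate 2, and cortical libraries at 191 to 303 on plate 1 and 403 to 516 on plate 2, so that in cortex the plates did not overlap. For Bdnf the hippocampal range was 345 to 439 on plate 1 and 273 to 358 on plate 2, and the cortical range 292 to 396 on plate 1 and 234 to 319 on plate 2. The plates differed for Arc mainly in cortex (126 to 280 on plate 1, 269 to 330 on plate 2). In hippocampus Arc was at 102 to 146 on plate 1 and 102 to 173 on plate 2, with log2 means of 6.98 and 7.07. Within the litter that kept the earlier plates, the noHS rise from 1 h to 168 h was 1.12 for Ptgs2 (limma adjusted p = 0.00562) and 0.24 for Bdnf (limma adjusted p = 0.404) in hippocampus, and 2.03 and 1.32 in cortex (limma adjusted p = 3.68e-10 and 8.13e-06). In HS hippocampus the same restriction moved Bdnf from 0.23 to 0.49 (limma adjusted p = 0.0028) and Ptgs2 from 1.22 to 0.68 (limma adjusted p = 0.0109). Hippocampal Bdnf in HS+NBQX ran from 0.37 to 0.45 over the alternative settings, this restriction among them. The rise of Arc in noHS was 1.16 in hippocampus and 2.07 in cortex with this restriction, and that of Homer1 1370454 was 1.36 and 2.46.

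**Figure D3:**
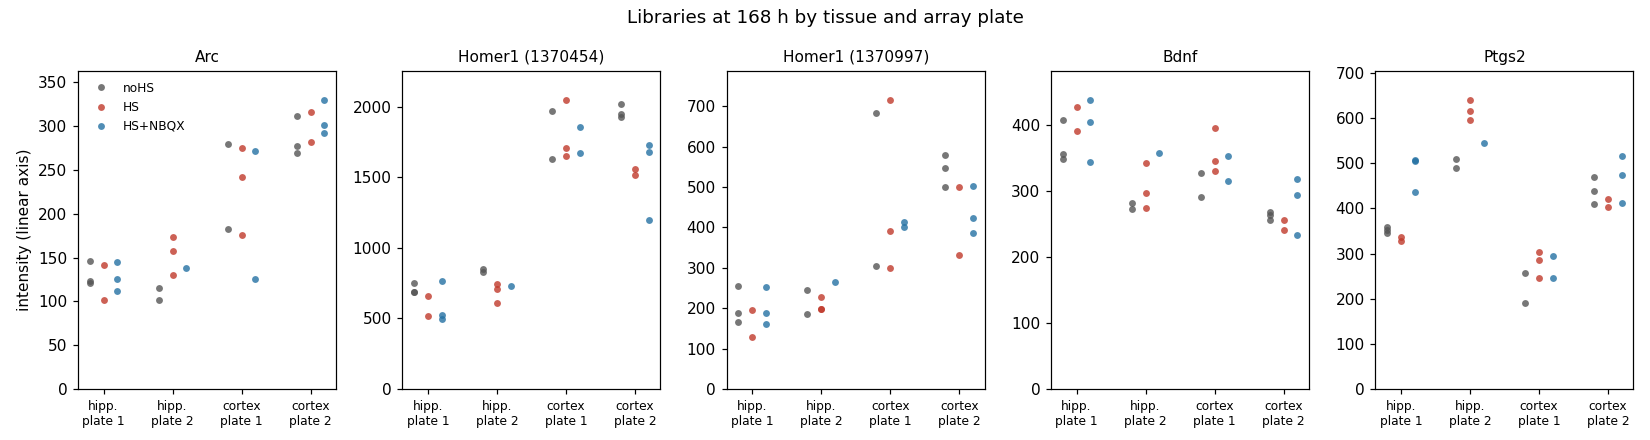
Intensity (linear axis from 0) of the 29 libraries at 168 h, by tissue and array plate and coloured by treatment. Ptgs2 was brighter on plate 2 and Bdnf on plate 1 in both tissues, while the Homer1 probe sets separated by tissue with the plates overlapping.

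The tissues were then compared in the noHS group. Averaged over the 5 times, Bdnf was 2.15-fold higher in hippocampus than in cortex (1.11 ± 0.07, limma adjusted p = 1.78e-18) and Ptgs2 1.36-fold higher (0.45 ± 0.10, limma adjusted p = 0.000133). The other 3 probe sets were lower in hippocampus, Arc by 0.45 on the log2 scale and Homer1 by 0.71 on 1370454 and 0.92 on 1370997 (limma adjusted p = 4.98e-05, 9.28e-12 and 5.77e-10). All 5 were thus called, in a comparison that called 51.8% of all probe sets. Among the 68 pups that gave both tissues, in all treatments, Bdnf was higher in hippocampus in 63 and Ptgs2 in 60, and cortex was higher for Homer1 in 67 and 66 pups on its probe sets and for Arc in 57. A plate difference like that fitted at 168 h would bear on this comparison, because 4 of the 5 times had hippocampus on plate 1 and cortex on plate 2. In the fit with tissue, treatment and plate at 168 h all 5 probe sets were called (28% of all), with hippocampus against cortex at 0.49 for Ptgs2, 0.20 for Bdnf, -0.95 for Arc and -1.36 and -1.16 for Homer1. Without the plate term 21.6% were called, and the value for Ptgs2 was 0.42.

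The tissue difference of Bdnf narrowed with age. At 1 h the noHS hippocampi were at 269 to 364 and the cortices at 88.2 to 146, a 2.97-fold difference. The difference was 2.49-fold at 6 h, 2.40-fold at 12 h and 2.22-fold at 48 h, with no overlap of the groups at any of these times. At 168 h hippocampus (273 to 408) and cortex (256 to 328) overlapped, and the difference of 0.24 on the log2 scale was not called (confidence interval -0.07 to 0.54, limma adjusted p = 0.427). At that age alone each tissue lay on both plates. Within the litter on the earlier plates, the noHS hippocampi all lay above the noHS cortices. Over the alternative settings the difference ran from 0.21 to 0.49 and was never called (smallest limma adjusted p = 0.0728). The test of this narrowing, the rise from 1 h to 168 h in hippocampus against that in cortex, gave -1.34 ± 0.22 (limma adjusted p = 0.000361). In the litter that kept the earlier plates it was -1.08 (limma adjusted p = 0.0419).

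Of the other probe sets only Homer1 1370454 passed the same test, with hippocampus minus cortex at -0.38 at 1 h (limma adjusted p = 0.0998) and -1.32 at 168 h (limma adjusted p = 9.56e-09). Its hippocampal rise was smaller than the cortical one by 0.94 ± 0.23 (-0.94, limma adjusted p = 0.0258), and these 2 probe sets, Bdnf and Homer1 1370454, were the members called in a test that called 1.12% of all. In the litter that kept the earlier plates this Homer1 value was -1.09 (limma adjusted p = 0.0521), and it was -0.91 without either of the cortical noHS libraries at 337 and 335 at 1 h (limma adjusted p = 0.0521 and 0.0646). Arc gave -0.88 (limma adjusted p = 0.14), Homer1 1370997 gave -0.29 and Ptgs2 -0.32 (limma adjusted p = 0.744 and 0.684). At 168 h Arc was at 102 to 146 in noHS hippocampus and 182 to 311 in cortex, a 2.15-fold difference, while at 1 h the ranges of 39.3 to 69.8 and 62.9 to 72.9 overlapped. The number of probe sets called at a single time was 2 at 1 h (20.4% of all), 4 at 6 h (19.7%), 2 at 12 h (22.4%), 3 at 48 h (28.1%) and 3 at 168 h (8.91%). The count at 6 h was 2 without either of the hippocampal noHS replicates 3 and 5 of that time. At 168 h these were Arc and both Homer1 probe sets, all lower in hippocampus.

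**Figure D4:**
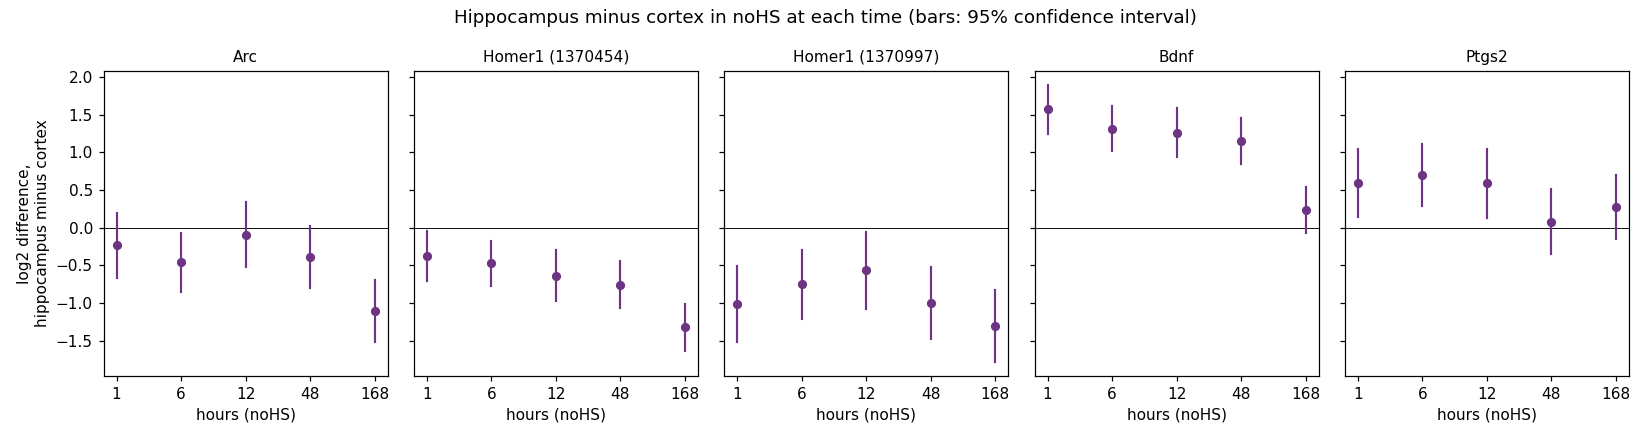
Log2 difference of hippocampus minus cortex in the noHS group at each time, with 95% confidence intervals, for each probe set. Bdnf fell from 1.57 at 1 h to 0.24 at 168 h, and Arc and Homer1 1370454 reached -1.11 and -1.32 at 168 h.

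The central comparison of the study was HS against noHS. HS pups had both hypoxia and seizures and noHS pups neither, so hypoxia and seizures cannot be told apart. Averaged over the 5 times, 0 of the 5 probe sets were called in hippocampus, where 21.5% of all probe sets were, and 0 in cortex, where 29.1% were. In hippocampus the differences were 0.07 for Arc (confidence interval -0.12 to 0.26), -0.01 for Bdnf (-0.13 to 0.11), -0.09 and 0.09 for Homer1 (-0.24 to 0.07 and -0.11 to 0.29) and 0.19 for Ptgs2 (-0.01 to 0.39, limma adjusted p = 0.191). In cortex they were 0.05 for Arc (-0.12 to 0.22), 0.07 for Bdnf (-0.06 to 0.20), -0.06 and 0.05 for Homer1 (-0.24 to 0.13 and -0.19 to 0.28) and 0.09 for Ptgs2 (-0.08 to 0.25). No interval reached 0.40 on the log2 scale. At an unadjusted p under 0.05, limma had 0 of the 5 in either tissue, and the methods' analysis of variance called 0 at an adjusted p under 0.05. At the false discovery rate of 0.25 that the methods used, that analysis passed hippocampal Ptgs2 (adjusted p = 0.235) and 0 in cortex.

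At the single times 0 of the 5 were called as well. From 1 h to 168 h, 2.02%, 0.598%, 3.27%, 3.67% and 2.4% of all probe sets were called in hippocampus and 6.37%, 4.28%, 5.54%, 3.58% and 4.61% in cortex. Only Homer1 1370997 in hippocampus and Bdnf in cortex, both at 1 h, had an unadjusted limma p under 0.05. Hippocampal Homer1 1370997 was at 109, 100, 79.5, 83.9 and 93.4 in HS and at 91.8, 41.9, 71.9, 70.0 and 64.5 in noHS at 1 h. The groups overlapped through 1 noHS library, and the difference was 0.49 (confidence interval 0.06 to 0.92, limma adjusted p = 0.28). Cortical Bdnf was at 167, 141, 125, 121 and 146 in HS and at 97.9, 146, 88.2 and 97.3 in noHS at 1 h, where 3 of 4 noHS libraries lay below all HS libraries. The difference was 0.40 (0.10 to 0.71, limma adjusted p = 0.1), and adjusted p was 0.0332 with quantile normalization, 0.0468 with a common array median and 0.0268 without the noHS library at 146. Hippocampal Ptgs2 at 1 h was at 229, 220, 288, 133 and 197 in HS and at 168, 154, 121, 192 and 185 in noHS, with a difference of 0.35 (-0.08 to 0.79, limma adjusted p = 0.495). The HS libraries at 133 and 197 came from a litter with HS pups only, and without them the difference was 0.59 (limma adjusted p = 0.277).

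Arc at 1 h was at 76.8, 47.5, 43.7, 58.4 and 61.7 in HS hippocampus against 39.3 to 69.8 in noHS, a difference of -0.04 (-0.44 to 0.37), and in cortex the difference was -0.12 (-0.51 to 0.28). The HS and noHS ranges of Arc thus overlapped at 1 h in both tissues. In hippocampus these Arc values lay near the array medians (63.8 to 75.9). Cortical Arc at 1 h, at 52.5 to 91.6 in HS and 62.9 to 72.9 in noHS, also lay near the medians there (65.4 to 79.9). The noHS values of hippocampal Homer1 1370997 at 1 h (41.9 to 91.8) spanned the hippocampal medians. Whether Arc or Homer1 1370997 was detected above background was not tested. The change of the HS response over the 5 times was called for 0 of the 5 probe sets (0% of all in hippocampus, where 956 had an unadjusted p under 0.05, and 0.0742% in cortex), the smallest p being 0.0406 for cortical Bdnf (limma adjusted p = 0.657). Whether hippocampus and cortex differed in their HS response was tested too, and 0 of the 5 were called averaged over the times (0.0907% of all) or at 1 h (0%), where Bdnf gave -0.51 (limma adjusted p = 0.789).

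**Figure D5:**
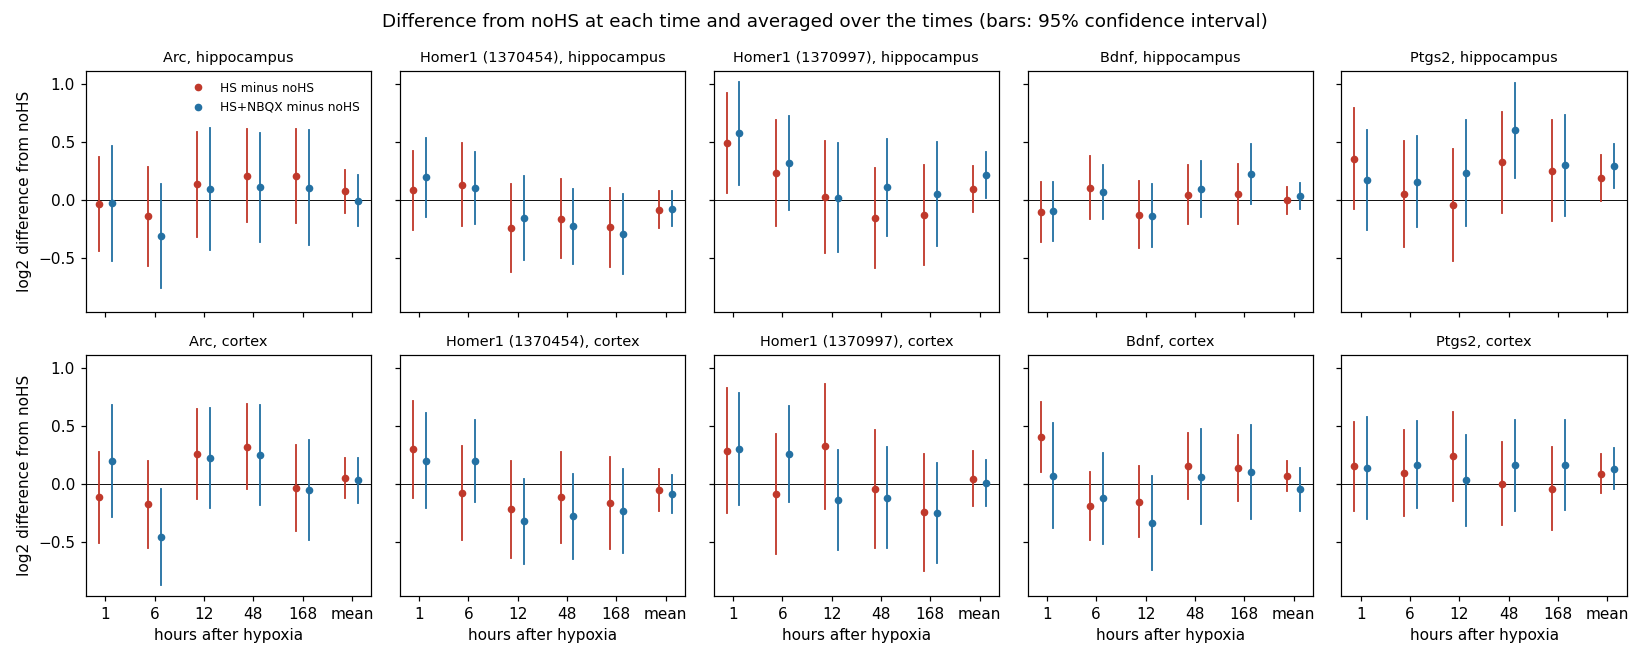
Log2 difference from noHS of HS (red) and HS+NBQX (blue) at each time and averaged over the times, with 95% confidence intervals, in hippocampus (top) and cortex (bottom). The interval of the averaged HS+NBQX difference of Ptgs2 in hippocampus runs from 0.10 to 0.48, and the averaged HS intervals all include 0.

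NBQX was compared with the HS group to ask what blocking AMPA receptors after the seizures changed, and 0 of the 5 probe sets were called in hippocampus (4.22% of all) or cortex (2.68%). At an unadjusted limma p under 0.05 there were 0 as well, and the methods' analysis of variance also called 0. The differences averaged over the times lay between -0.08 for Arc and 0.12 for Homer1 1370997 in hippocampus (limma adjusted p = 0.75 and 0.459) and between -0.12 for Bdnf and 0.04 for Ptgs2 in cortex (limma adjusted p = 0.532 and 0.846). In hippocampus HS+NBQX was above HS in 9 of 10 litters for Homer1 1370997 and in 6 for 1370454. It was in 7 for Ptgs2 and in 4 each for Arc and Bdnf. In cortex the counts were 4 or 5 of 10. The share of all probe sets with such counts was not computed.

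Against noHS, the HS+NBQX group differed in 1 of the 5 probe sets in hippocampus, where 30.5% of all probe sets were called, and in 0 in cortex, where 39% were. Hippocampal Ptgs2 was 1.22-fold higher (0.29, confidence interval 0.10 to 0.48, limma adjusted p = 0.0154), in the direction of 9 of 10 litters. At the single times 0 of the 5 were called (6.09%, 5.04%, 8.44%, 10.3% and 4.68% of all from 1 h to 168 h). At 48 h Ptgs2 was at 322, 306, 263, 184 and 241 in HS+NBQX and at 73.7, 200, 200, 240 and 204 in noHS, with 4 HS+NBQX libraries above all noHS libraries. The difference at 48 h was 0.60 (limma adjusted p = 0.0501). It was called in 5 of 12 alternative settings, among them litter as a factor (limma adjusted p = 0.0486), and over all 12 the adjusted p ran from 0.0336 to 0.432. Without the noHS library at 73.7 it was 0.30 (limma adjusted p = 0.368). The averaged difference without the 48 h contrast was 0.21 (limma adjusted p = 0.148), and without the library at 73.7 it was 0.23 (limma adjusted p = 0.0151). Homer1 1370997 in hippocampus gave 0.21 (confidence interval 0.02 to 0.41, limma adjusted p = 0.0942, and 0.0287 without the noHS library at 138 at 6 h), and in cortex the 5 differences lay between -0.09 and 0.13. The noHS libraries are shared with the comparison of HS with noHS, so these values are not independent of it.

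The seizures were counted in each pup during hypoxia, with 7 to 17 in 21 HS pups (median 12) and 5 to 14 in 25 HS+NBQX pups (median 10), and 2 further HS pups had no exact count. The slope of log2 intensity on this count within groups of treatment and time was called for 0 of the 5 probe sets in 44 hippocampal and 45 cortical libraries. No probe set of the array was called (0%), with 934 and 1135 at an unadjusted p under 0.05. The slope per seizure was 0.04 for hippocampal Homer1 1370454 (confidence interval 0.01 to 0.07), 0.03 for 1370997 (0.00 to 0.07) and 0.04 for cortical Ptgs2 (0.01 to 0.08), each with a limma adjusted p near 1. Hippocampal Arc gave -0.01 (-0.05 to 0.03) and Bdnf 0.00 (-0.02 to 0.02).

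The probe sets were also described against each other, after the mean of each group of treatment and time was taken away. The 2 Homer1 probe sets correlated at r = 0.681 over 70 hippocampal and r = 0.8 over 72 cortical libraries. In both tissues 1370997 was the closest match of 1370454 among 24248 probe sets, and the reverse rank was not computed. Between different genes r ran from -0.268 for Bdnf and Ptgs2 to 0.36 for Arc and Bdnf in hippocampus, and from 0.14 for Bdnf and Ptgs2 to 0.553 for Bdnf and Homer1 1370454 in cortex. These are descriptions over libraries that share plates and litters. Bdnf differed between the plates at 168 h in the opposite direction to both Ptgs2 and Arc, and it had the lowest r with Ptgs2 in both tissues but the highest r between different genes with Arc in hippocampus. No correlation was computed within a plate, and the part of the plates in these values was not tested.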

How the data were processed

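Each value the authors deposited is a linear microarray intensity of 1 probe set in 1 library. The study used HT Rat Focus arrays. Per the methods, the authors summarised the scans with MAS5, whose version was not found in the sources used here, scaled each array to a shared upper quartile of its present-call intensities, and left out 2 scans because the tissues may have been swapped. No further scaling was applied here. The 97 values at or below 0 were raised to the smallest positive intensity (0.0526) before the log2 transform. limma 3.58.1 (R 4.3.3; lmFit, then eBayes with an intensity trend) was run on the libraries of the groups compared, with 1 mean per treatment and time. Averaged treatment differences weight the 5 times equally. p-values were adjusted over all 24249 probe sets by Benjamini-Hochberg, with a threshold of 0.05. The fits were tested on simulated data. Treatment, tissue, time and replicate number came from the sample labels, pups from the animal codes there, and plates from the study's supplementary description of its design. The cage codes of the labels were taken as litters. Replicates were separate pups.

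The 5 probe sets are described in every comparison. They, and the lists, were chosen with earlier results of these data known. Gene lists, marker checks and a search for probe sets with a like pattern were not run, as no table used here names the other probe sets. Precision is limited by the number of arrays. Same-numbered libraries of different treatments did not deviate together (median r from -0.00933 to 0.0225, with at most 3 pairs over 0.1 in a comparison), so numbers were not taken as pairs. No 2 of the 142 libraries held identical values. The alternatives changed the scaling, added 32 before log2, dropped the dimmest probe sets (below the percentile 40), omitted the trend, weighted arrays, ran the methods' analysis of variance across all times, fitted all treatments together, blocked on replicate number, litter, animal or plate column, or left out libraries, litters or times. The tests of the rise between groups and tissues, the tissue tests at single times, the plate fit at 168 h and leaving out times were chosen after seeing the data. Promoter sequences are from RefSeq, build GRCr8.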

Additional observations from a re-analysis of the deposited data

Results flagged for a closer look

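Of 150 groups of 4 to 6 libraries, 12 held a library far from the rest of its group, and chance gives about 1 in 20. For Ptgs2 in hippocampus these were the HS+NBQX library at 283 at 12 h (the others 183 to 191) and the noHS library at 73.7 at 48 h (the others 200 to 240). For Bdnf in cortex they were the HS library at 137 at 12 h (118 to 119) and the HS+NBQX library at 70.0 at 1 h (122 to 134). For Homer1 1370454 they were cortical libraries at 168 h, HS+NBQX at 1200 (1670 to 1860) and noHS at 1630 (1930 to 2020), and the hippocampal noHS library at 482 at 6 h (258 to 300). For Homer1 1370997 they were the cortical HS library at 263 at 48 h (131 to 160) and the hippocampal HS library at 128 at 168 h (196 to 227). For Arc in cortex they were HS+NBQX at 117 at 12 h (65.4 to 75.3), HS+NBQX at 126 at 168 h (271 to 330) and noHS at 182 at 168 h (269 to 311). The noHS libraries at 1630 for Homer1 and 182 for Arc are 1 library, replicate 5 of noHS cortex at 168 h.

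The rise from 1 h to 168 h in noHS differed between the tissues by the interaction test for Bdnf, with hippocampus minus cortex at -1.34 (limma adjusted p = 0.000361), and for Homer1 1370454, at -0.94 (limma adjusted p = 0.0258).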

How the results depend on the processing

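Counts of calls among the 5 probe sets that moved by 1.5 times or more were these. For HS+NBQX against noHS in hippocampus the averaged count of 1 was 0 without the 48 h contrast and 1 to 2 over single libraries left out (2 without noHS 6 h replicate 2). The count over the single times, 0, was 1 (Ptgs2 at 48 h, adjusted p between 0.0336 and 0.0486) with quantile normalization, without the dimmest probe sets, with all 3 treatments in one fit, with litter as a factor and without the 168 h litter on the other plate, and 0 to 1 over single libraries left out, with 12 of 47 giving 1. For HS against noHS in cortex at single times the count of 0 was 1 with quantile normalization and with a common median, and 0 to 1 over single libraries. For noHS cortex at 6, 12 and 48 h against 1 h the count of 1 was 2 with quantile normalization, a common median, array weights or without the 168 h litter on the other plate, 0 with random blocks for plate columns, and 1 to 2 over single libraries (2 without replicate 2 of 1 h or replicate 4 of 168 h). For noHS hippocampus at 168 h against 48 h it was 2 in place of 4 with the methods' t-test. For hippocampus against cortex in noHS it was 2 in place of 4 at 6 h with the plate column block and 2 to 4 over single libraries, 4 in place of 2 at 12 h with array weights, 2 to 3 at 1 h and at 12 h over the single libraries and 2 to 3 at 1 h over the other settings, and for the rise between the tissues 1 in place of 2 without the 168 h litter on the other plate and 1 to 2 over single libraries. With log2(intensity + 32) the Arc rise between the tissues was -0.79 (limma adjusted p = 0.0352).

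Ptgs2 in hippocampus against cortex at 168 h turned from 0.28 to -0.32 (limma adjusted p = 0.416) without the litter on the other plate, where plate and tissue again coincide. All other differences that changed sign were averaged treatment differences near 0 and not called. In hippocampus, Bdnf for HS against noHS (-0.01) was 0.023 with litter and 0.012 without the 168 h litter on the other plate, and Bdnf for HS+NBQX against HS was -0.0093 without that litter. Homer1 1370454 for HS+NBQX against HS was -0.011 with a common median, -0.0045 with array weights and -0.012 without the HS-only litter. For HS+NBQX against noHS, Arc was 0.0071 with the plate column block and 0.069 without the 6 h contrast, and Bdnf was -0.019 with a common median and -0.019 without the 168 h contrast. In cortex, Arc for HS against noHS was -0.0098 with array weights. For HS+NBQX against HS, Arc was 0.013, 0.016, 0.040 and 0.0018 with quantile normalization, a common median, array weights and without the HS-only litter, Homer1 1370454 was 0.0085 and 0.0036 with those scalings, and Ptgs2 was -0.038 with litter. For HS+NBQX against noHS, Bdnf was 0.0093 with quantile normalization, and Homer1 1370997 was -0.0022 without the 168 h litter on the other plate and -0.016 with the replicate number as a block. That replicate block changed no call. Over single libraries left out, the averaged hippocampal values ran from -0.023 to 0.019 for Bdnf (HS against noHS), from -0.022 to 0.043 for Homer1 1370454 (HS+NBQX against HS) and from -0.055 to 0.031 for Arc (HS+NBQX against noHS), and the cortical ones from -0.049 to 0.031 for Arc, -0.070 to 0.0078 for Homer1 1370454 and -0.085 to 0.0012 for Homer1 1370997 (all HS+NBQX against HS) and from -0.027 to 0.046 for Homer1 1370997 (HS+NBQX against noHS). The cause of these changes was not tested.

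At the methods' false discovery rate of 0.25 and with their analysis of variance, Ptgs2 in hippocampus passed for HS against noHS (adjusted p = 0.235), and Ptgs2 and Homer1 1370997 passed for HS+NBQX against noHS in hippocampus. The animal as a random block changed no tissue call. Counts for gene lists were not run, since no table at hand names other probe sets. The number of arrays limits what these comparisons can show.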
